A study of Mus musculus with 2 samples.

Results

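The genes that supply retinoic acid and answer to it were followed through the cells of the adult mouse testis: Stra6, Adh1, Aldh1a1, Aldh1a2, Crabp1, Cyp26b1, Rara, Rarg and Stra8. They are listed by name for their roles in this pathway, although earlier results of these data were known when the list was made, and are 9 of the 36547 genes listed in the count tables. All 9 had a row in both tables. Single-cell RNA was sequenced from 1 wild-type (WT) library and 1 knockout (KO) library of 12-week-old C57BL/6 mice, the KO with the genotype Alkbh5-/-. Alkbh5, the RNA demethylase that removes N6-methyladenosine, was inactivated throughout the body, so that germ cells and somatic cells of the KO testis both lacked it. The study states 1 mouse per genotype in its introduction and 3 per genotype in its methods, so testes may have been pooled within a library, and with 1 library per genotype no difference below has a replicate check.

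Retinoic acid is made from vitamin A inside the testis and drives spermatogonia to differentiate and then to enter meiosis. Retinol is taken up through STRA6 in many tissues, oxidised to retinal by alcohol and retinol dehydrogenases such as ADH1, and oxidised again to retinoic acid by the retinaldehyde dehydrogenases ALDH1A1 and ALDH1A2. CRABP1 binds retinoic acid in the cytoplasm, CYP26B1 degrades it, the nuclear receptors RARA and RARG carry its signal to DNA, and Stra8, which is needed for meiosis to begin, is its best known target in germ cells.

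Retinoic acid receptors bind DNA at repeats of a half-site, AGGTCA. The promoters of the 9 genes were therefore searched for these letters on both strands, in RefSeq windows from 250 bases before to 50 after each transcription start. The half-site was present in 3 of the 17 windows of the 9 members, 1 window each of Stra8, Rara and Rarg. Of all 32851 windows 16.3% held it, a share close to that of the member windows, and 1.81% held it at least 2 times, as the Stra8 window did. The Rara and Rarg windows held it 1 time each. The stretches that hold it are shown as matches to these letters only, with the half-site in capitals (RefSeq, GRCm38.p6, 5′ to 3′ on the strand of the gene):
Stra8, first half-site: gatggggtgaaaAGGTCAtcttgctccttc
Stra8, second half-site: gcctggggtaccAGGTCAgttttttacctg
Rara: gcagattgcagcAGGTCAgtcctttggac
Rarg: agcccaggacacTGACCTctgccagctctg
The Stra8 stretches lie on the plus strand at chr6:34920742-34920771 and chr6:34920898-34920927, with the motif 194 and 38 bases before the RefSeq start, and both fall within an exon of a GENCODE Stra8 transcript. In Rara the motif stood 33 bases after the start of 1 of its transcripts, at chr11:98964893-98964921. The Rarg motif was on the opposite strand, 225 bases before the start, at chr15:102257730-102257759 on the minus strand. A match is a description of these letters and not a binding site.

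The WT library held 5756 barcodes with 80283221 unique molecular identifiers (UMIs, 1 per captured RNA molecule) and the KO library 7012 barcodes with 82056760. The median cell had 10905.5 UMIs in WT and 9117.5 in KO. The targeted gene, Alkbh5, was seen as 607 UMIs in the WT library, 7.56 UMIs per 1000000 (CPM), and as 5 in the KO library, 0.0609 CPM, 124-fold lower. Cells were clustered without the 9 genes and each cluster was named by its markers, so that "Leydig" below means Leydig-like, and so on. The WT and KO libraries held 189 and 1066 spermatogonia, 35 and 120 early spermatocytes, 714 and 661 late spermatocytes, 797 and 759 early-stage, 1115 and 1033 mid-stage and 331 and 312 late-stage round spermatids, 2409 and 1317 sperm, 93 and 1165 Leydig cells, 47 and 471 Sertoli cells and 25 and 84 macrophages. Endothelial cells, 1 and 24, were too few to compare. The libraries shared 45 cell barcodes. Each level below is the UMIs of a gene summed over a class in 1 library and divided by all UMIs of that class, in CPM, with a 95% exact Poisson interval in brackets. Ratios are log2 of KO over WT CPM with the exact conditional interval of the sums. Both cover counting error only and not the spread between mice, and shares have Clopper-Pearson intervals. CPM is a share of RNA, so that fewer cells of a kind within a class and less RNA per cell cannot be told apart.

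**Figure D1:**
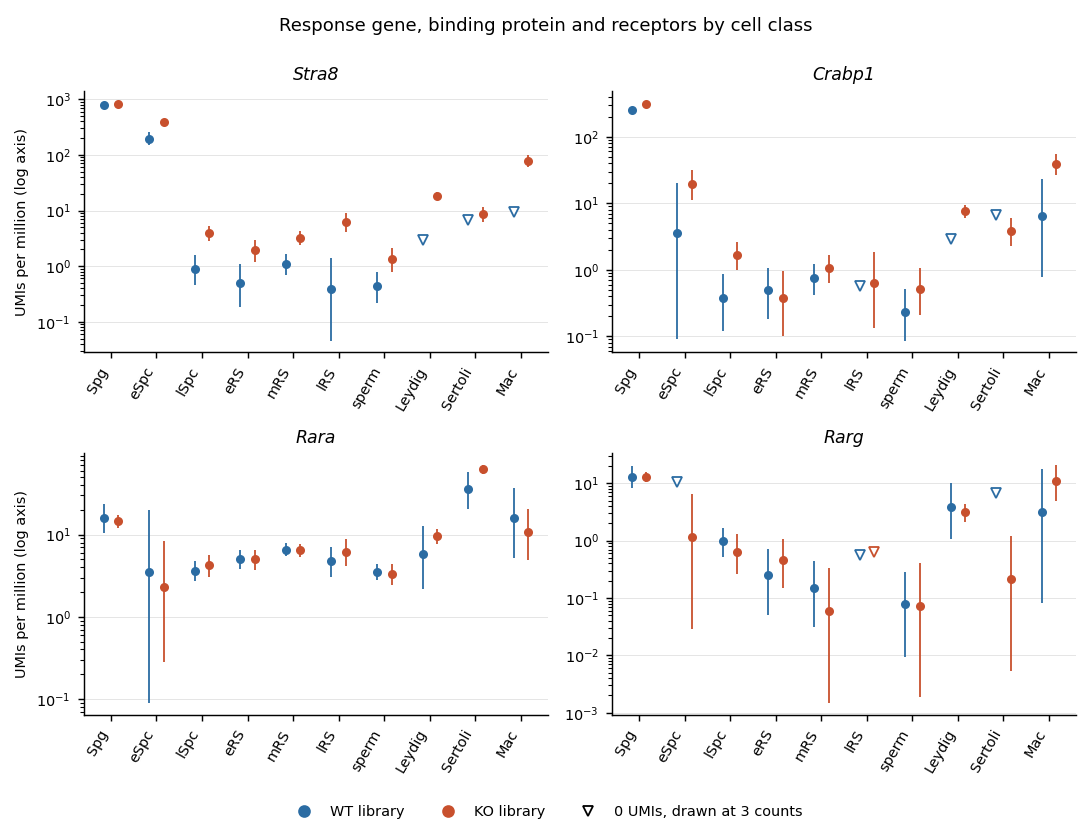
Levels of Stra8, Crabp1, Rara and Rarg in CPM (log axis) in 10 cell classes of the WT and the KO library, with 95% exact Poisson intervals of 1 library each. Spg, spermatogonia; eSpc and lSpc, early and late spermatocytes; eRS, mRS and lRS, early-, mid- and late-stage round spermatids; Mac, macrophages. Open triangles are classes with 0 UMIs, drawn at 3 counts. Stra8 and Crabp1 peaked in spermatogonia in both libraries, at 775 and 834 CPM and at 255 and 309 CPM, and Rara in Sertoli cells.

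**Figure D2:**
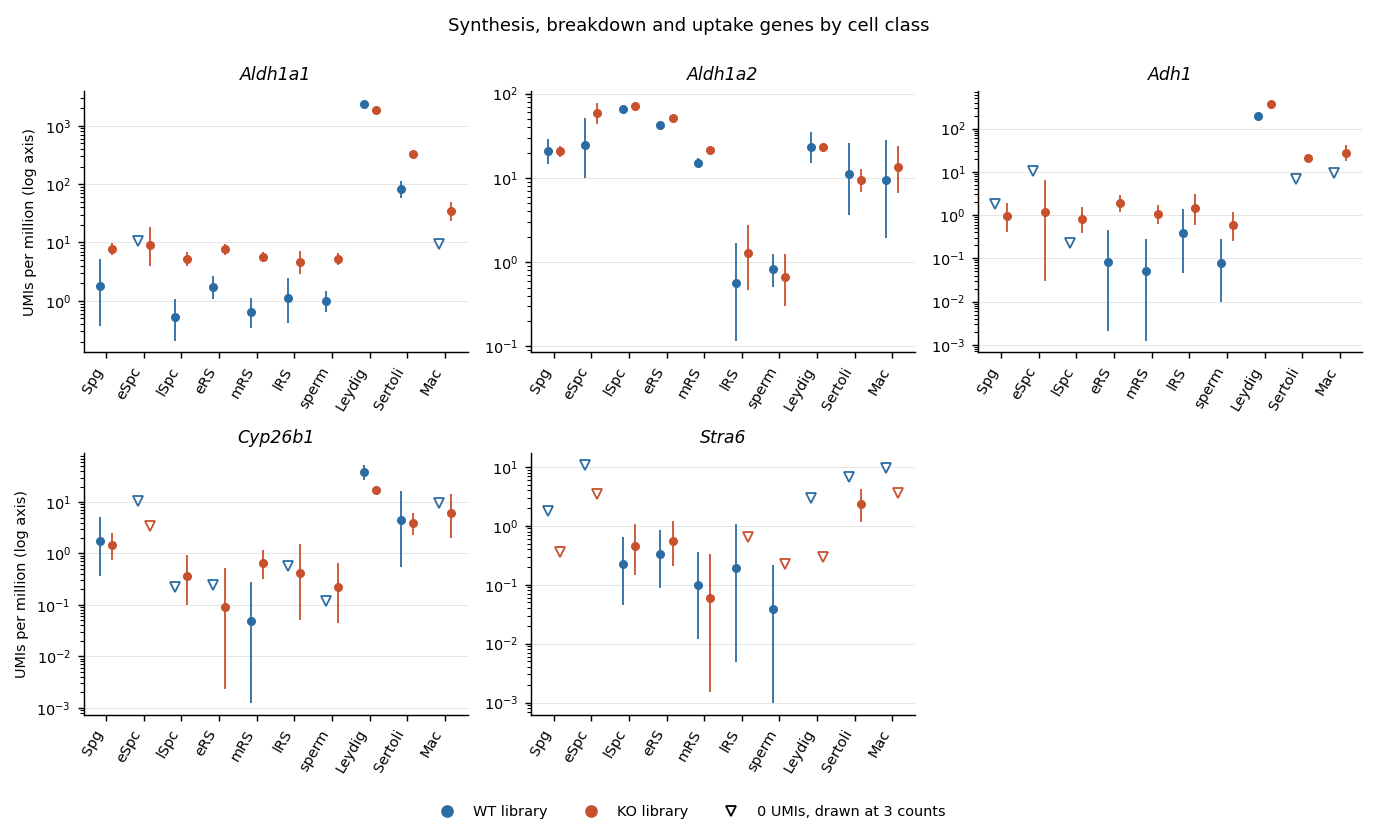
Levels of Stra6, Adh1, Aldh1a1, Aldh1a2 and Cyp26b1 in CPM (log axis) in the same 10 classes and with the same signs. Adh1, Aldh1a1 and Cyp26b1 peaked in Leydig cells, while Aldh1a2 peaked in late spermatocytes at 65.2 CPM in WT and 72.1 in KO.

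The members lay in different cells. Spermatogonia held 92.4% of the Stra8 UMIs of the WT library and 89.7% of those of the KO library, and 92.5% and 93% of the Crabp1 UMIs. The Leydig class held 95.5% and 90.6% of Aldh1a1, 97.1% and 94.6% of Adh1 and 86.7% and 75.8% of Cyp26b1. Most of the Cyp26b1 UMIs of that class lay in fibroblast-like cells, as described below. Aldh1a2 was spread over germ cells, with 48.8% and 35.1% in late spermatocytes and 28.6% and 24.9% in early-stage round spermatids. The libraries also differed in how many of these cells they held. Over whole libraries, where numbers of cells and levels per cell are mixed, Adh1 stood at 2.57 CPM in WT and 49.7 in KO, Aldh1a1 at 31.3 and 254, Stra8 at 17.7 and 94.9, Crabp1 at 5.80 and 33.9, and Aldh1a2 at 22.3 and 27.3. In the class where each of them was highest, the gap was smaller, as follows.

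Stra6, the membrane receptor for retinol carried by its plasma binding protein, was barely seen. The WT library had 11 UMIs in all and the KO library 23. Of the KO UMIs 11 lay in Sertoli cells, at 2.36 CPM, against 0 in WT. The interval of that count of 0 reached 8.24 CPM, so no direction can be given. Late spermatocytes had 3 and 5 UMIs, early-stage round spermatids 4 and 6, and spermatogonia, Leydig cells and macrophages 0 in both libraries. At this depth Stra6 was close to its detection limit in every class.

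Adh1, an alcohol dehydrogenase that oxidises retinol to retinal, was a Leydig gene and was 1.93-fold higher per UMI in KO Leydig cells. Its level there was 195 CPM (169 to 224) in WT from 200 UMIs and 378 CPM (366 to 390.2) in KO from 3858 UMIs. The log2 ratio was 0.95 (0.75 to 1.16), just short of the 2-fold size used to call a gene, and 1.11 (0.89 to 1.33) without called doublets. With every cell thinned to 5729 UMIs, Adh1 was found in 50% of WT and 68.6% of KO Leydig cells, and without thinning in 63.4% and 73.9%. In sperm, which should lack it, the thinned shares were 0.0458% and 0.273%. Outside Leydig cells WT had at most 2 UMIs in any class, while KO Sertoli cells had 96 UMIs and KO macrophages 23. With the WT sum of 0 taken at 3 counts, these were 3.07-fold and 2.92-fold higher than WT. The lower ends of the log2 intervals were 1.29 and 1.13. In the somatic clustering described below, the Sertoli-like cluster held 0 Adh1 UMIs in WT and 50 in KO, which gave no direction. A macrophage-like cluster held 17 in WT and 65 in KO, with the log2 of KO over WT at 0.41 (-0.37 to 1.28). All 17 WT UMIs and 57 of the KO UMIs there lay in cells of the Leydig class. Cells of the macrophage class held 0 in WT and 6 in KO, so that value does not measure Adh1 in macrophages. Early-stage round spermatids had 1 UMI in WT and 21 in KO, a log2 ratio of 4.56 (1.93 to 9.93). Leydig markers summed to 415 CPM in WT and 979 in KO in the Sertoli class, to 53.9 and 508 CPM in macrophages and to 20 and 163 CPM in early-stage round spermatids, with 5, 6 and 11 of the 11 markers seen in WT and all 11 in KO, and their part was not tested. The 24 KO endothelial cells had 28 Adh1 UMIs, 177 CPM. Adh1 lies at chr3:138260991-138290698 (GRCm38, GENCODE vM21), and its exons overlap those of Gm16559 on the other strand. Whether counting used strand is not given in the sources used here, so reads of this pair cannot be told apart. By RT-qPCR of testis tissue, the study reported Adh1 as strongly lower in KO mice. That is opposite to its direction here in Leydig cells and over whole libraries, and the reason was not tested.

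Aldh1a1, which makes retinoic acid from retinal, was concentrated in Leydig cells in both libraries. It stood at 2348 CPM (2255 to 2443) in WT Leydig cells and 1851 CPM (1825 to 1878) in KO, a log2 ratio of -0.34 (-0.40 to -0.28). Nearly every Leydig cell carried it, 97.7% in WT and 98.5% in KO after thinning and 98.9% and 99.1% before. Among Leydig cells, then, Adh1 was higher and Aldh1a1 lower in KO. Its close relative Aldh1a7, whose transcript is 88.8% identical over 2036 aligned bases and could share reads with it, had 135 CPM in WT and 128 CPM in KO Leydig cells, a log2 ratio of -0.072 (-0.33 to 0.19). Without called doublets, Leydig markers summed to 45582 CPM in WT and 60402 in KO Leydig cells. Markers of spermatids and sperm summed to 14983 and 7068 CPM, of stromal fibroblasts to 1207 and 632, and of peritubular cells to 154 and 782. Their part in the Adh1 and Aldh1a1 ratios was not tested.

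Sertoli cells showed Aldh1a1 at 82.6 CPM (58.2 to 114) in WT from 37 UMIs and 326 CPM (310 to 343) in KO from 1523, a log2 ratio of 1.98 (1.51 to 2.49). The thinned share of Sertoli cells with it was 26.2% in WT and 72.2% in KO, unthinned 29.8% and 80.7%, against 0.595% and 2.45% in sperm. This class was not alike in the libraries. Markers of spermatids and sperm made up a median of 17.4% of the UMIs of a WT Sertoli cell and 0.288% in KO, and 35.3% of all genes tested there were at least 2-fold higher in KO. Their part in the ratio was not tested within the class, but somatic cells were also clustered on their own, a step added after the values were seen. Of its Sertoli-like clusters 1 held 26 KO cells and 0 WT cells. In the other, the Sertoli-like cluster meant below, with 12 WT and 317 KO cells, Aldh1a1 stood at 280.0 CPM in WT and 391 in KO, a log2 ratio of 0.48 (-0.024 to 1.04). The cells led by mixed markers, 48 in WT and 189 in KO, held 70.2% of the WT and 23.4% of the KO cells of the Sertoli class. This mixed cluster as a whole had Aldh1a1 at 206 and 410.4 CPM, from 109 and 870 UMIs. Most of these lay in cells of the Leydig class, 104 in WT and 673 in KO, with 5 and 192 in cells of the Sertoli class.

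Germ cells carried traces of Aldh1a1. They ranged from 0.521 to 1.78 CPM in WT, with 0 UMIs in early spermatocytes, and from 4.69 to 9.19 CPM in KO, with log2 ratios of 2.04 to 3.32 in the 6 classes where both had UMIs. Markers of Leydig cells moved with it, summing to 19.2 to 59.6 CPM in the WT germ classes and 119 to 214 CPM in KO. Of the 11 Leydig markers 3 to 11 had a UMI in a WT germ class and 10 or 11 in a KO germ class. Per 1000 Leydig marker UMIs, and in KO only, Aldh1a1 had 32.4 UMIs in Leydig cells and 28.5 to 47.3 in the germ classes. In KO Sertoli cells the value was 333. In WT the germ classes together held 2758 Leydig marker UMIs. Aldh1a1 had 3, 0, 7, 21, 13, 6 and 25 UMIs in these WT classes, in order from spermatogonia to sperm. The WT Leydig class had 2403 Aldh1a1 UMIs, and the whole WT library 48880 Leydig marker UMIs. The part of Leydig RNA in the germ cell values was not tested further.

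Aldh1a2, the other retinaldehyde dehydrogenase, belonged to meiotic and early postmeiotic germ cells. Late spermatocytes had 65.2 CPM (61.0 to 69.7) in WT and 72.1 CPM (67.1 to 77.3) in KO, a log2 ratio of 0.14 (0.0034 to 0.28). The level then declined along the round spermatids, through 42.2, 15.2 and 0.571 CPM in early-, mid- and late-stage cells of WT and 51.6, 21.6 and 1.28 CPM of KO. Ratios over the same steps were 0.29 (0.12 to 0.47), 0.50 (0.28 to 0.73) and 1.16 (-1.06 to 3.79), the last on 3 and 6 UMIs. Sperm had 0.824 and 0.661 CPM. Among classes with at least 20 UMIs early spermatocytes were the only one past 2-fold, at 24.9 CPM from 7 UMIs in WT and 58.6 CPM from 51 in KO, a log2 ratio of 1.23 with a wide interval (0.088 to 2.62). In KO its interval overlapped that of late spermatocytes, the class above it in the order, while in WT it overlapped that of early-stage round spermatids. Spermatogonia, at 20.7 and 20.8 CPM, and Leydig cells, at 23.4 and 23.0 CPM, were level between the libraries within counting error. Thinned shares in late spermatocytes were 32.8% and 32.1%, unthinned 62.7% and 60.8%, against 0.412% and 0.545% in sperm. Of the enzymes of the last step, Aldh1a1 was thus highest in Leydig cells, which sit between the tubules, and Aldh1a2 in germ cells within them. The split was not complete. Aldh1a1 also stood at 280.0 CPM in WT and 391 in KO in the Sertoli-like cluster, and Aldh1a2 at the level given above in Leydig cells. Neither gene passed 2-fold in the class where it was highest.

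Crabp1, the cytoplasmic binding protein, was highest in the same class as Stra8 in both libraries. Spermatogonia had 255 CPM (232 to 280.4) in WT from 431 UMIs and 309 CPM (297 to 321) in KO from 2587, a log2 ratio of 0.27 (0.13 to 0.43). The thinned share of cells with it was 54.9% in WT and 64.1% in KO, unthinned 66.1% and 67.9%, against 0.0915% and 0.455% in sperm. Early spermatocytes already had little, 1 UMI in WT and 17 in KO, 3.56 and 19.5 CPM. In late spermatocytes, with 5 UMIs in WT and 18 in KO, it stood at 0.372 and 1.65 CPM, or 2.15 (0.66 to 3.93) on the log2 scale.

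Cyp26b1, the enzyme that clears retinoic acid, was the only member at least 2-fold lower in a KO class, among classes with at least 20 UMIs. The Leydig class had 38.1 CPM (27.1 to 52.1) in WT from 39 UMIs and 17.1 CPM (14.7 to 19.9) in KO from 175, a log2 ratio of -1.15 (-1.66 to -0.61). In that class 14.2% of all genes tested were at least 2-fold lower. Cyp26b1 was in few of the cells, 5.81% in WT and 3.65% in KO after thinning and 11.8% and 5.32% before, with 0% and 0.0909% of sperm. Clustering the somatic cells on their own showed where these UMIs lay. Of the 39 in WT 26, and of the 175 in KO 99, fell in 1 cluster that resembled fibroblasts, with 12 cells in WT and 76 in KO, in which Cyp26b1 was one of the leading genes. That cluster had Cyp26b1 at 363 CPM in WT and 196 in KO, a log2 ratio of -0.89 (-1.52 to -0.21). The 3 Leydig-like clusters, with 68 WT and 968 KO cells, held 0 and 16 Cyp26b1 UMIs. The fibroblast-like cells were not alike either, since Leydig markers summed to 5285 CPM in WT and 23071 in KO and markers of stromal fibroblasts to 9245 and 4720.2 CPM, and their part in the ratio was not tested. In WT the Leydig markers Hsd3b1 and Hsd17b3 and the fibroblast marker Lum were at 0 there.

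**Figure D3:**
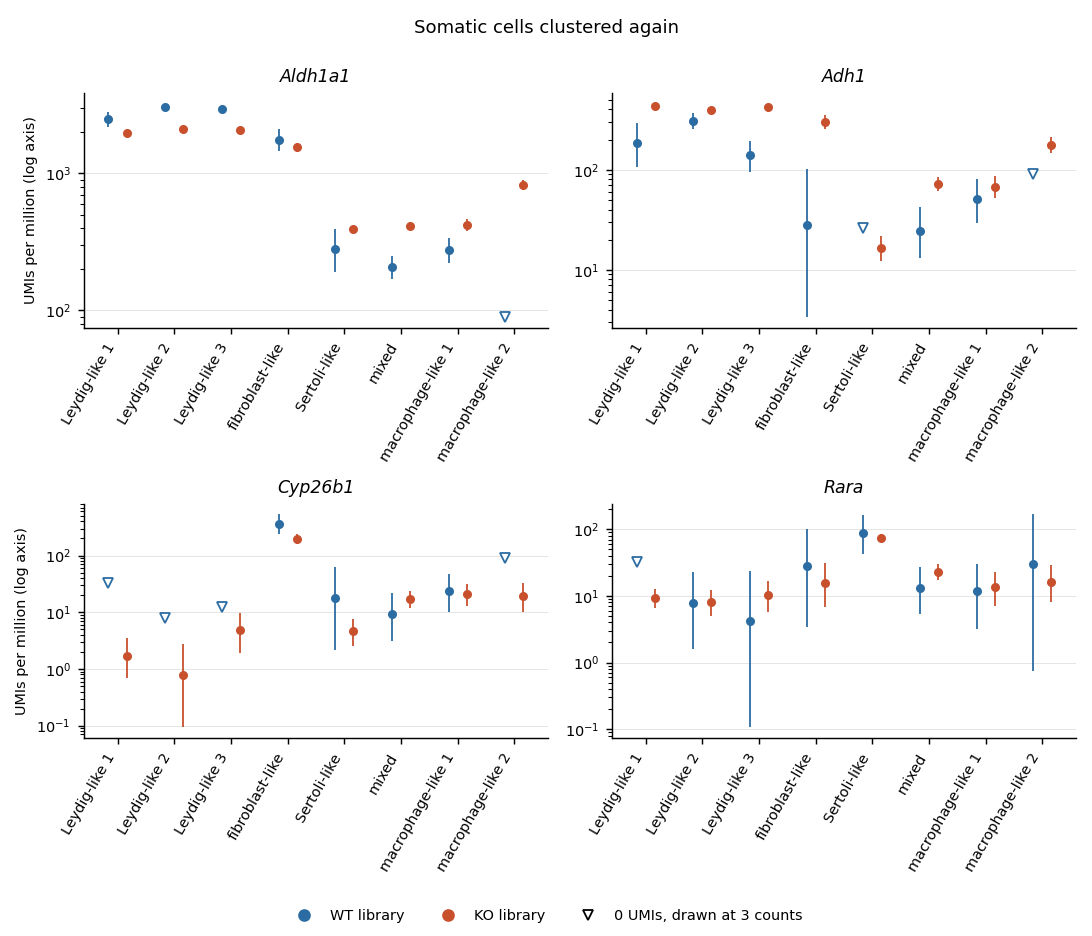
Levels in CPM (log axis) in somatic cells clustered on their own, with 95% exact Poisson intervals, for the WT and the KO library. Leydig-like 1 to 3 are 3 clusters led by Leydig genes. Mixed is a cluster that the marker rule named macrophage, on 5 of 10 markers. That name was set aside, since its leading genes held 1 macrophage marker and 2 markers of another class. Cyp26b1 stood out in the fibroblast-like cluster in both libraries, while Aldh1a1 was lower and Adh1 higher in KO in each Leydig-like cluster.

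Over the pooled Leydig-like clusters Aldh1a1 stood at 2926 CPM in WT and 2029 in KO, a log2 ratio of -0.53 (-0.59 to -0.46). Adh1 stood at 236 CPM and 417 CPM there, 0.82 (0.59 to 1.05). Each cluster showed both directions. Aldh1a1 was lower in KO in all 3, by ratios of -0.32, -0.53 and -0.52, and Adh1 was higher in all 3, by 1.22, 0.35 and 1.6, although 1 of them rested on 11 WT cells. Adh1 differed most in the fibroblast-like cluster, with 2 UMIs or 27.9 CPM in WT and 151 UMIs or 299 CPM in KO, a log2 ratio of 3.42 (1.54 to 6.48), where Leydig markers also differed as given above.

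Rara, a receptor needed in Sertoli cells for normal spermatogenesis, had its highest level in the Sertoli class. It stood at 35.7 CPM (20.4 to 58.0) in WT from 16 UMIs and 62.3 CPM (55.4 to 69.9) in KO from 291, a log2 ratio of 0.80 (0.079 to 1.63), and all genes tested in the class had a median of 0.65. The Sertoli-like cluster of the somatic clustering showed the opposite direction, 87.5 CPM in WT and 74.9 in KO, a log2 ratio of -0.22 (-1.13 to 0.86). The thinned shares of the class were 21.4% and 30.9%, unthinned 23.4% and 42.7%, against 1.92% and 1.82% in sperm. Spermatogonia came next in both libraries, at 16 and 14.6 CPM of Rara, an interval apart from Sertoli cells in KO and overlapping theirs in WT. Leydig cells had 5.86 and 9.51 CPM. Round spermatids had 4.76 to 6.59 CPM in WT and 5.01 to 6.44 CPM in KO, with intervals that overlapped at each stage.

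Rarg, the receptor of spermatogonia, was low, and no difference was detectable at this depth. Spermatogonia had 13.0 CPM (8.16 to 19.7) in WT from 22 UMIs and 12.8 CPM (10.5 to 15.4) in KO from 107, a log2 ratio of -0.029 (-0.70 to 0.70). Thinned shares were 4.88% and 6.05%, unthinned 10.1% and 8.91%, and 0% of thinned sperm in both libraries carried it. Leydig cells had 3.91 and 3.14 CPM on 4 and 32 UMIs and came next in WT, while in KO macrophages came next, at 10.9 CPM on 9 UMIs against 1 UMI in WT. Neither receptor gene reached a 2-fold ratio in any class with at least 20 UMIs.

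Stra8, the gene that opens meiosis in response to retinoic acid, was nearly level over the spermatogonia class as a whole but was found in more KO cells. It stood at 775 CPM (734 to 818) in WT from 1309 UMIs and 834 CPM (814 to 853) in KO from 6986, a log2 ratio of 0.11 (0.020 to 0.19). The thinned share of spermatogonia with a Stra8 UMI was 53.0% (45.1 to 60.9) in WT and 75.1% (71.9 to 78.0) in KO, unthinned 56.6% and 76.5%, against 0.183% and 0.455% in sperm. Early spermatocytes held 55 Stra8 UMIs in WT, 196 CPM, and 339 in KO, 389 CPM, which is 0.99 (0.58 to 1.43) on the log2 scale. The ratio of the spermatogonia class depended on how cells were clustered and weighted, from -0.060 to 0.96 under the alternatives, so the cells were also taken at a finer clustering.

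At a resolution of 0.8 these cells fell into 3 clusters, described here by their leading genes. One, led by Afp, Upp1, Sall4 and Ccnd2, held 14 WT and 208 KO cells. Another, led by Crabp1, Cenpa, Ccnd1 and Dmrt1, held 152 and 724. The last, led by Rad51ap2, Gm4969 and Prdm9, of which Prdm9 places the breaks of meiotic recombination, held 63 and 258. Of the cells in these clusters, the first made up 6.11% in WT and 17.5% in KO, the second 66.4% and 60.8%, and the third 27.5% and 21.7%.

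Without the members having been used to draw them, the clusters lined up by Stra8 in WT, from 143 CPM in the Sall4 cluster and 330.1 CPM in the Crabp1 cluster to 1722 CPM in the Prdm9 cluster. In KO the steps were 666, 597 and 1518 CPM, so that the first cluster was no lower than the second. The KO to WT log2 ratio was 2.22 (1.49 to 3.06) in the Sall4 cluster, on 15 and 1176 UMIs, then 0.85 (0.71 to 1.00) in the Crabp1 cluster and -0.18 (-0.29 to -0.071) in the Prdm9 cluster. Other markers differed in the Sall4 cluster too, and their part was not tested. Spermatid and sperm markers summed to 16572 CPM in WT and 5380.4 in KO, early spermatocyte markers to 1681 and 2918 CPM, with Prdm9, Meiob, Dmc1, Majin and Terb1 of the 17 at 0 in WT, and Leydig markers to 38.2 and 206 CPM. Of the 5 members tested in the Sall4 cluster Stra8 and Rara, 2 in all, were at least 2-fold higher and 0 lower, where 10.7% of all genes were higher and 12.2% lower by that size. The Crabp1 cluster had 1 of 6 higher (5.29% of all genes) and 0 lower (5.77%), and the Prdm9 cluster 1 of 4 (6.13%) and 0 (10.4%), the 1 being Aldh1a1 in both. Rara in the Sall4 cluster rested on 1 UMI in WT and 52 in KO, 9.55 and 29.4 CPM. Thinned shares of cells with Stra8 were 18.2% of 11 WT cells and 65.7% of 175 KO cells in the Sall4 cluster, 45.1% and 73.2% in the Crabp1 cluster and 64.3% and 73.5% in the Prdm9 cluster, the unthinned shares being 21.4% and 64.4%, 50% and 75.5%, and 63.5% and 76.7%. Weighting the 3 clusters equally gave Stra8 at 732 CPM in WT and 927 in KO, a log2 ratio of 0.34.

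Crabp1 was highest in the middle cluster, with 153 and 233 CPM in the Sall4 cluster, 285 and 370 CPM in the cluster it led and 17.7 and 32.1 CPM in the Prdm9 cluster. Its ratios were 0.61 (-0.11 to 1.43), 0.37 (0.22 to 0.53) and 0.86 (-0.16 to 2.06). Rarg had 38.2 and 28.9 CPM in the Sall4 cluster, 9.11 and 9.20 CPM in the Crabp1 cluster and 9.81 and 2.25 CPM in the Prdm9 cluster, the last on 5 and 4 UMIs. Aldh1a2 was highest in the Prdm9 cluster, at 29.4 and 51.3 CPM, a log2 ratio of 0.80 (0.0044 to 1.70). Within the Crabp1 cluster of KO, 78.9% of thinned cells with a Crabp1 UMI also had Stra8, against 59.0% of those without. In WT these shares were 43.2% and 48.1%, with overlapping intervals on 81 and 52 cells.

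**Figure D4:**
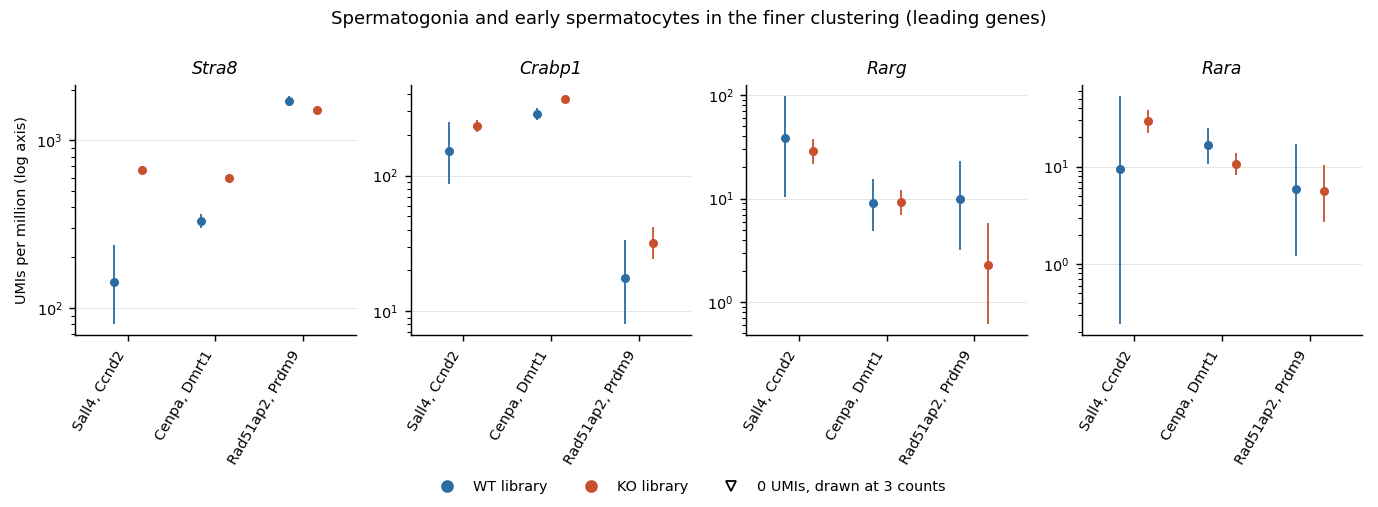
Levels in CPM (log axis) of members in the 3 finer clusters of spermatogonia and early spermatocytes, named by their leading genes (the Crabp1 cluster as Cenpa, Dmrt1), in the WT and the KO library with 95% exact Poisson intervals. Stra8 in the Sall4 cluster stood at 143 CPM in WT, on 15 UMIs of 14 cells, and 666 CPM in KO. In the Prdm9 cluster it stood at 1722 CPM in WT and, slightly lower, at 1518 in KO.

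Outside these cells Stra8 was low in WT and higher in KO. Late spermatocytes had 0.893 and 3.94 CPM, the 3 round spermatid stages 0.494 and 1.95, 1.09 and 3.25, and 0.381 and 6.18 CPM, and sperm 0.432 and 1.32 CPM, with log2 ratios of 1.58 to 4.02. Leydig cells of WT showed 0 UMIs against 188 in KO, and macrophages 0 and 64. With the WT sum taken at 3 counts these were 6.29-fold and 8.13-fold higher in KO. The lower ends of the log2 intervals were 2.34 and 2.68. Sertoli cells had 0 and 40, with a lower end of the log2 interval at -0.010, and the Sertoli-like cluster of the somatic clustering 0 and 22, which gave no direction. Most of the somatic UMIs sat in few cells. Of the 188 in KO Leydig cells 142, and of the 64 in macrophages 63, lay in 1 macrophage-like cluster of the somatic clustering, with 79 KO cells, 28 of them called doublets, in which all 18 spermatogonia markers summed to 1249 CPM and all 11 Leydig markers to 23889.8. The same cluster held 56 of the 78 Crabp1 UMIs of KO Leydig cells and all 32 of KO macrophages. Without called doublets the KO Leydig class kept 52 Stra8 UMIs, 1.80-fold higher than WT with the WT sum taken at 3 counts. Per 1000 spermatogonia marker UMIs, spermatogonia had 356 (337 to 376) Stra8 UMIs in WT and 303 (296 to 311) in KO, lower in KO where the CPM was slightly higher. Late-stage round spermatids had 9.39 and 108 on this scale, and the KO Leydig cells and macrophages 99.8 and 197.

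**Figure D5:**
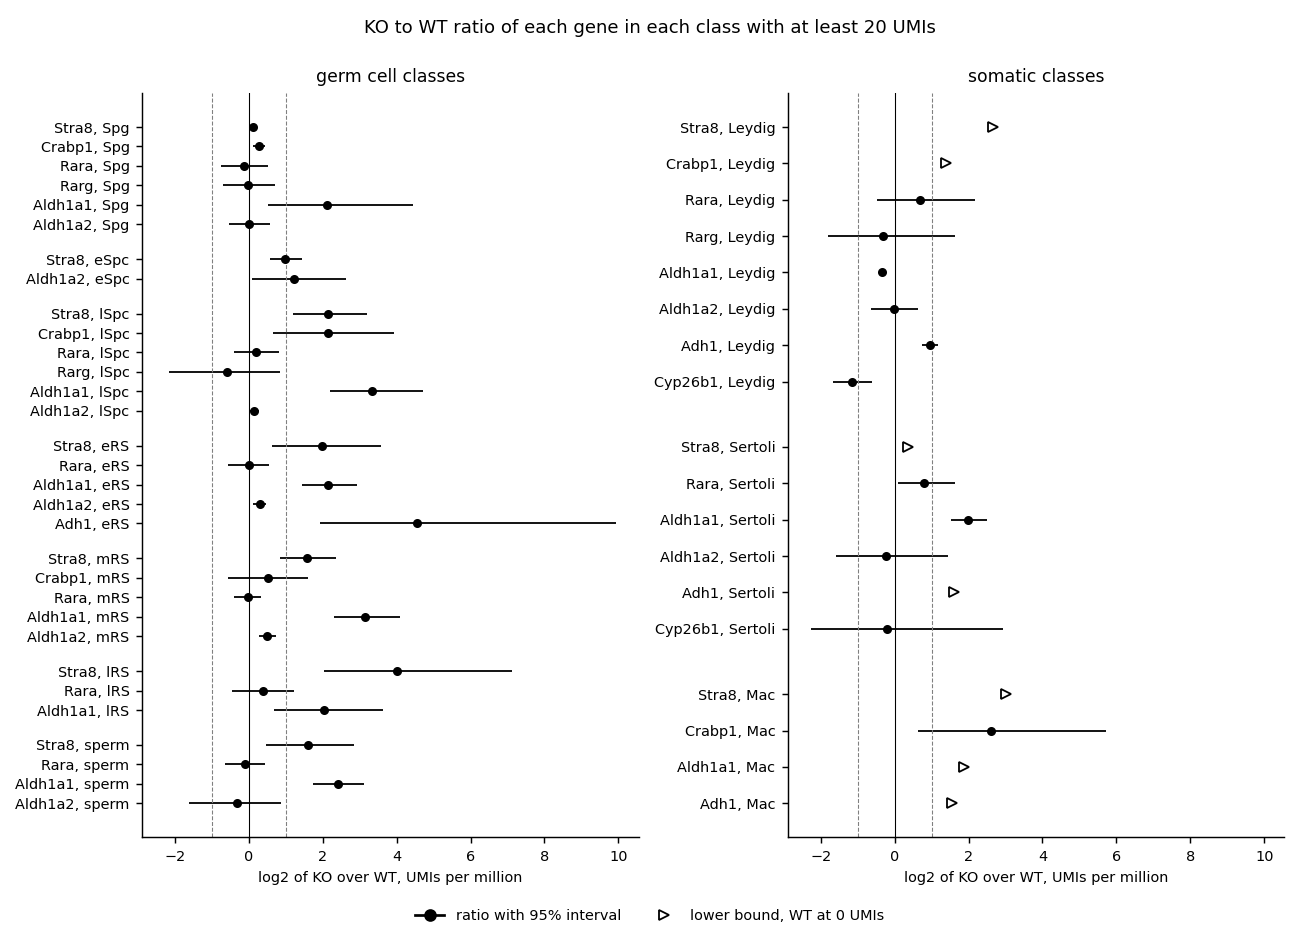
Log2 ratios of KO over WT CPM of the members in each class with at least 20 UMIs, with 95% exact intervals, and lower bounds where WT had 0 UMIs. Dashed lines mark 2-fold. Points past 2-fold to the higher side are mostly Stra8 and Aldh1a1 outside the classes where they are highest. The point past it to the lower side is Cyp26b1 in the Leydig class, where most of its UMIs lay in fibroblast-like cells.

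Of the 90 pairs of a member and a class, 49 had at least 20 UMIs, and of these 22 were at least 2-fold higher in KO and 1 was lower. The minimum counted both libraries together, so a pair could pass on KO UMIs alone. The higher pairs with 0 WT UMIs were Stra8 and Crabp1 in Leydig cells (188 and 78 KO UMIs) and Adh1 in Sertoli cells (96). In macrophages they were Stra8, Aldh1a1 and Adh1 (64, 29 and 23 KO UMIs). Stra8 in Sertoli cells (0 and 40) also passed the minimum but fell short of 2-fold. The balance of directions therefore depends in part on this minimum, which was the same for all genes. The share of all genes that reached this size upward is given beside each count. It was 1 of 6 members in spermatogonia (7.53% of all genes), 1 of 2 in early spermatocytes (6.30%), 3 of 6 in late spermatocytes (6.16%), 3 of 5, 2 of 5 and 2 of 3 in early-, mid- and late-stage round spermatids (5.01%, 10% and 9.60%), 2 of 4 in sperm (13.9%), 2 of 8 in Leydig cells (8.54%), 2 of 6 in Sertoli cells (35.3%) and 4 of 4 in macrophages (17.7%). Stra8 gave 7 of the 22 and Aldh1a1 8. Downward, the share of all genes was 7.51%, 8.14% and 3.13% in spermatogonia, early and late spermatocytes, 3.84%, 2.58% and 2.88% in the round spermatid stages, 3.18% in sperm, 14.2% in Leydig, 14.3% in Sertoli cells and 8.86% in macrophages. Cyp26b1 in the Leydig class was the 1 member. In the classes where they were highest, none of the 8 members with a ratio was 2-fold higher.

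Another 53 genes of retinoid handling and germ cell response were read with the same rule, 52 of them in the tables. In spermatogonia 35 were tested, 3 were at least 2-fold higher in KO (7.53% of all genes) and 2 lower (7.51%), with a median log2 ratio of -0.013 beside 0.033 over all genes. The higher ones included Ccnd2, a cyclin of dividing spermatogonia, at 18.9 and 59.8 CPM, and Nanos3, an RNA-binding protein of undifferentiated germ cells, at 5.92 and 20.9 CPM. Bco1, which cleaves beta-carotene into retinal, was lower at 17.2 and 8.0 CPM. Leydig cells had 4 of 29 higher (8.54% of all genes) and 1 lower (14.2%), Bco1 at 11.7 and 5.19 CPM. Late spermatocytes had 6 of 24 higher (6.16%) and 0 lower (3.13%), among them Dazl, a germ cell RNA-binding protein, at 45.1 and 105 CPM. In early spermatocytes 0 of 12 passed in either direction (6.30% and 8.14% of all genes).

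Sertoli cells had 12 of 28 list genes higher (35.3% of all genes) and 1 lower (14.3%), a median log2 ratio of 0.94 beside 0.65 over all genes. Fabp5, which can carry retinoic acid to other nuclear receptors, stood at 91.5 and 349.7 CPM there and Adh5 at 105 and 284 CPM. The round spermatid stages had 1 of 21, 7 of 31 and 3 of 20 higher (5.01%, 10% and 9.60% of all genes) and 1, 0 and 0 lower (3.84%, 2.58% and 2.88%). Sperm had 4 of 26 higher (13.9%) and 3 lower (3.18%), and macrophages 4 of 13 higher (17.7%) and 0 lower (8.86%).

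For each member with at least 200 UMIs the genes with the most similar levels were found by Pearson's r of log2(CPM + 1) over 31 units, a unit being a cluster in 1 library. Units share libraries and depth, and the values are a description. Stra8 was most like 4933427D06Rik (0.97), Tex13b (0.96) and Xlr4a (0.95), and Crabp1 was most like Ccna2, a cyclin of dividing cells (0.95), Cdca7 (0.95) and Gm41 (0.94). Aldh1a1 followed the glutathione transferases Gstm2 (0.98) and Gsta2 (0.97), and Adh1 followed Csf1 (0.97), Mrap (0.97) and Htra1 (0.97). Aldh1a2 was nearest to Ptgr2 (0.97), Cyp26b1 to Pdpn (0.96) and Rara to Fhl1 (0.92), while Rarg was close to Ski (0.93).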

How the data were processed

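Testis cells of 1 WT and 1 KO library were captured with the GEXSCOPE kit. Per the labels and methods, the authors took barcodes and UMIs from read 1, trimmed and aligned the other read with STAR 2.5.3a and assigned it to genes with featureCounts 1.6.2, and deposited counts of UMIs per gene and barcode, with no normalization. The build named in the methods is human although symbols in the tables are those of mouse genes, and strand is not given in the sources used here. Genes listed in only 1 table were set to 0 in the other. All barcodes had over 500 genes.

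Libraries were integrated in R 4.3.3 with Seurat 5.3.0 (2000 variable features without the 9 members, 20 anchor dimensions, 30 components, resolution 0.3, seed 1). Clusters were named where at least 3 markers had a UMI in 10% of cells and stood 2-fold above other cells. Scrublet in scanpy 1.11.5 called 4.24% of WT and 4.92% of KO barcodes doublets at an expected rate of 0.06, and they were kept. Sums, intervals and a seeded thinning to 5729 UMIs, which left out 362 WT and 914 KO cells, were computed in Python 3.11.15 with scipy 1.17.1. Called means a CPM ratio of at least 2 with at least 20 UMIs in both libraries together. A sum of 0 was taken at 3 counts per class and library. No test was made between genotypes, since cells are not replicates. The ratio code was checked on simulated counts.

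The named genes were the 9 members in every class, list genes past 2-fold with at least 50 UMIs and up to 4 of the most abundant per list in the classes described, and the 3 most similar genes per member with at least 200 UMIs. Members and lists were chosen with earlier results of these data known. Alternatives changed the clustering, the cell and UMI minimums, doublets and the weighting of cells. Clustering the somatic cells again, and totals without spermatid and sperm markers, were added after seeing the data.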

Additional observations from a re-analysis of the deposited data

How the results depend on the processing

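No paired analysis was possible because each genotype had 1 library, no result comes from a test and the libraries share only replicate number 1. Of 67 alternatives of the member ratios 57 moved by less than the counting interval, 10 moved further and 0 reversed a called value, and all 9 alternatives of the shares stayed within theirs. Only Cyp26b1 in Leydig cells was a called value here, so the sign changes of Stra8 and Rara given below did not count as reversed. The 67 hold no ratio of Cyp26b1 with somatic cells clustered again. Stra8 in spermatogonia, 0.11 on the log2 scale, moved under 6 alternatives: it was 0.96 with the members kept among the variable features, 0.95 at resolution 0.8, 0.92 with over 1000 genes per cell, -0.060 with no integration, -0.016 with doublets removed and -0.033 with each cell weighted equally. Aldh1a1 in Leydig cells, -0.34, was -0.44 with no integration, -0.41 with each cell weighted equally and -0.53 with somatic cells clustered again. Rara in Sertoli cells, 0.80, was -0.24 with somatic cells clustered again, over both Sertoli-like clusters. Asking for at least 50 UMIs, which leaves fewer pairs, gave 13 pairs of a member and a class higher in place of 22, and 26 list genes higher and 4 lower in place of 44 and 8. The 1 pair that was lower, Cyp26b1 in Leydig cells, became 0 with somatic cells clustered again, where its UMIs fell in another cluster. The cause of the other moves was not tested. Few UMIs limited Stra6, Rarg and Rara, and the 25 macrophages, 35 early spermatocytes and 47 Sertoli cells of WT limited every ratio in those classes.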
